A study of Mus musculus with 8 samples.

Results

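Rab GTPases are small proteins that switch between a GTP-bound form on membranes and a GDP-bound form in the cytosol, and each marks a set of vesicles or organelles. The Rab genes described here were all protein-coding genes in the RefSeq gene table of the mouse build GRCm38.p6 (mm10) whose symbol is Rab, a number and an optional letter or second number. The rule found 59 of 21887 protein-coding genes, and it used names and no measured value. 4 of them with known roles in phagosome or granule traffic (Rab27a, Rab32, Rab7b and Rab20) were set apart from the other 55. The study measured PU.1 binding by ChIP-seq (chromatin immunoprecipitation followed by sequencing) in AML246, a mouse acute myeloid leukaemia cell line, while doxycycline (Dox) restored PU.1 and after Dox was withdrawn. Cells grew in IMDM with 10% FCS and IL-3, Dox was given at 0.1 ug/mL from day 0 to day 12 of a 24 day course, and cells were sorted by flow cytometry before immunoprecipitation.

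There were 7 libraries, 1 for each title, all from the same line and medium. 4 were titled restoration, namely Day 0 (untreated), Day 4, Day 8 and Day 12 (that number of days on Dox), all from total viable cells. 3 were titled knockdown, and their treatment labels named other times than their titles. For Day 12- 4 the treatment label gave 12 days of Dox and a sort of viable cells high in Cd11b. For Day 12- 8 it gave 4 days off Dox, and for Day 12- 12 it gave 8 days off Dox, both from total viable cells. The series' 8th sample, whose treatment label gave 12 days off Dox, was not analysed here. Titles are used below. With 1 library per title there was no replicate error to set a difference against, so all values describe these libraries and no p-values are given.

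A macrophage or granulocyte takes up particles into phagosomes, which mature by exchanging one Rab for the next, and it stores enzymes in granules that Rabs bring to the cell surface. PU.1 belongs to the ETS family of DNA-binding proteins, is needed for myeloid maturation and binds purine-rich DNA with a GGAA core. Exchange factors load a Rab with GTP, GTPase-activating proteins end its active state, and effectors read the active form.

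Each deposited list gave 1 summit position per called peak with a score, read here as −log10 of the peak's q-value. The lists held between 8043 (Day 0) and 148415 sites (Day 12- 12), with 86271 at Day 12. No source used here gave the sequencing depth or the control library, so a longer list or a higher score in another library does not measure more binding, and a missing call does not show absence of binding. RNA was not measured, so the cells' identity could not be checked against marker levels. Spi1, the gene for PU.1, had sites in all 7 libraries, with highest scores of 53.4, 304, 217, 674, 219, 142 and 472 in the order Day 0, Day 4, Day 8, Day 12, Day 12- 4, Day 12- 8 and Day 12- 12. The same order is used wherever 7 values are listed, and "the window" of a gene is its body plus 10 kb on either side.

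7 Rab genes had a called summit inside a RefSeq promoter window (250 bases before to 50 bases after an annotated start) in at least 6 of the 7 libraries. Their promoters are shown for that recurrence, and other Rab genes had higher scores at sites outside promoter windows. The coordinates are GRCm38.p6, from RefSeq. Rab32 lies at chr10:10558158-10558457 on the minus strand, and Rab27a at chr9:73044560-73044859 on the plus strand. Rab20 lies at chr8:11478591-11478890 on the minus strand, and Rab5c at chr11:100738166-100738465 on the minus strand. Rab7 lies at chr6:88044968-88045267 on the minus strand, and Rab2b at chr14:52279346-52279645 on the minus strand. Rab7 has 2 annotated starts, at 88045270 and 88045017, and the window shown belongs to the one at 88045017. Its summits lay 118 to 236 bases before that start. Rab27a also has 2, and the window shown belongs to the one at 73044810. Rab33b lies at chr3:51483716-51484015 on the plus strand. Each is written 5′ to 3′ in the direction of transcription, and capitals mark matches to GGAAGT, with its longer forms GAGGAAGT and CCGGAAGT, on either strand (the other strand reads ACTTCC).
Rab32: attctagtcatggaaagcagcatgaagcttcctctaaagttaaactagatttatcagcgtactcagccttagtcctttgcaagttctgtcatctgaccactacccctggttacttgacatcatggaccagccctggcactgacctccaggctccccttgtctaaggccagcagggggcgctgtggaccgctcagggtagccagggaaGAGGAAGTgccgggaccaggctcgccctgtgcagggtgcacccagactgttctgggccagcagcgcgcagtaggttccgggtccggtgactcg
Rab27a: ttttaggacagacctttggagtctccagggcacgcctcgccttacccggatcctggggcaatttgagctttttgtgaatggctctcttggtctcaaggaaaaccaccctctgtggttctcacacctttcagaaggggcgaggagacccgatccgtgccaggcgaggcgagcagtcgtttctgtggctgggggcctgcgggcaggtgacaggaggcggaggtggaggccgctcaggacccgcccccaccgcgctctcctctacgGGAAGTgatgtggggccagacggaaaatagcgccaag
Rab20: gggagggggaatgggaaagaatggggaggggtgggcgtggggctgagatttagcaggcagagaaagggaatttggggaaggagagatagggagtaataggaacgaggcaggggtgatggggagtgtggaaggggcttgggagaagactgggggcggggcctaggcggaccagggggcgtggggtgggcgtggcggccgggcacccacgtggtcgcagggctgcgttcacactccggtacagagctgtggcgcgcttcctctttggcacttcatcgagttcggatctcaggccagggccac
Rab5c: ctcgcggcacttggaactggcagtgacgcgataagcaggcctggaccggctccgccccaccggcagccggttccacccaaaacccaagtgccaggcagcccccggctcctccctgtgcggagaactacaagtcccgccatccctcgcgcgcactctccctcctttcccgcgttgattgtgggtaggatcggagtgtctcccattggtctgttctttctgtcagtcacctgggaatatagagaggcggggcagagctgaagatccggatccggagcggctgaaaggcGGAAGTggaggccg
Rab7: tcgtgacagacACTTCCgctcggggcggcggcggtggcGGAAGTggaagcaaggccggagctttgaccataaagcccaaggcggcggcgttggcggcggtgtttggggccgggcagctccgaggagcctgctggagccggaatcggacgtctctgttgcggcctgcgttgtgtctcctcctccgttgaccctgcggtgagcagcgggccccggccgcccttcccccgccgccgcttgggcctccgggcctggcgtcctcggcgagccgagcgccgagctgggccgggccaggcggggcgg
Rab2b: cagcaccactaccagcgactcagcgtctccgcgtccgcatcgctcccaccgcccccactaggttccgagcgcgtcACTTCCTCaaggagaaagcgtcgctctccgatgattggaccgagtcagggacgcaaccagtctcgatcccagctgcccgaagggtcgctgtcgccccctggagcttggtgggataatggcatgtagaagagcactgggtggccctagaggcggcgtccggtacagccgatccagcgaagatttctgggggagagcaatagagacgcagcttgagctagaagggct
Rab33b: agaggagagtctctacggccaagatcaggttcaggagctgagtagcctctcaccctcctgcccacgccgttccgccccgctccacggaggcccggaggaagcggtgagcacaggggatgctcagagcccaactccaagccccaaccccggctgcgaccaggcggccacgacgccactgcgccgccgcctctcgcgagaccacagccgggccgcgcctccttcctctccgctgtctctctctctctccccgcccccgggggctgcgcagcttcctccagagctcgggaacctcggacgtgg

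All 4 Rab genes of phagosome and granule traffic had a called site at Day 4, Day 8 and Day 12, as most other Rab genes did. Rab32 stood out by having the same strong site at its start in every library. The number of the 4 with a site was 2, 4, 4, 4, 3, 4 and 4, where the lengths of the 4 genes alone would give 1.59, 3.15, 2.84, 3.44, 1.57, 2.75 and 3.44 if they were called like other genes of their length. Among all protein-coding genes 36.8%, 69.8%, 61.7%, 77.1%, 34.8%, 61.8% and 78.9% had a site. Of the other 55 Rab genes, 94.55%, 89.09% and 96.36% had one at Day 4, Day 8 and Day 12. The count of the 4 was thus near the background and not particular to them. Over those called, the traffic genes' median highest score was 49.9, 222, 153, 263, 50.9, 38.0 and 81.1. Over the called genes among the other 55 it was 11.6, 45.8, 58.1, 142, 19.7, 15.4 and 27.1. 4 genes are too few for a test of that difference, and none was made.

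Rab32, which acts on lysosome-related organelles and on phagosomes that hold bacteria, is a 13.2 kb gene on chromosome 10 with no other protein-coding gene in its window. Its site at the start scored 85.6, 316, 356, 531, 324, 383 and 425. Among all genes with a site it ranked 271 of 8052, 487 of 15267, 84 of 13504, 484 of 16874, 34 of 7625, 30 of 13524 and 68 of 17272. Rab32 was thus among the highest-scoring genes of each list, highest by rank in the library titled Day 12- 8. It was its only site in 6 libraries, and Day 12- 12 added 1 of score 9.77 in the gene, 11971 bp from the start. The promoter printed above holds GAGGAAGT from 43 to 36 bases before the start, with the start itself counted as 0. Summits of Rab32 lay 36, 32, 32, 28 and 31 bases before the start at Day 4, Day 8, Day 12, Day 12- 4 and Day 12- 12. At Day 0 and Day 12- 8 they lay 35 and 41 bases after it. All 7 summits fell within 1 merged site.

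Rab27a, which docks secretory granules and melanosomes at the plasma membrane, had sites at 3 main places in or near its 52.8 kb on chromosome 9. A site inside the gene, called between positions 73089746 and 73089803, scored 4.28, 306, 140, 111, 50.9 and 121 in the libraries other than Day 12- 8, which had no call there. Rab27a has 2 annotated starts. At Day 0 this site lay 25655 bp from the nearer one, at 73064148, whose promoter window held no summit in any library. The site at the other Rab27a start, whose promoter is printed, was called in all libraries but Day 0, with 12.7, 17.7, 146, 12.8, 10.1 and 30.5. There the summits lay 17 to 36 bases after the start, and the printed promoter has GGAAGT from 13 to 18 bases after it. A site 5.15 kb upstream of Rab27a, nearer to Pigb, scored 10.9, 33.8, 162, 16.9, 33.2 and 16.0 in the same 6 libraries. At Day 0 the highest site of the Rab27a window scored 14.3, lay 5846 bp outside the gene and was nearest to Khdc3. Its only other Day 0 site was the weak one inside the gene, and neither Rab27a start was called at Day 0.

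Rab20, a Rab of endosomes and maturing phagosomes in macrophages, had no site at Day 0. Its start was called in the other 6 libraries, with scores of 39.5, 167, 364, 31.8, 42.8 and 41.6. Summits of Rab20 lay between 12 bases before and 14 bases after the start, and the printed promoter holds none of the 3 motif strings. At Day 4 a site 17583 bp inside Rab20 scored higher, at 137. Rab7b, a late endosomal Rab linked to the traffic of Toll-like receptors, had no site at Day 0 or Day 12- 4. Its highest scores elsewhere were 39.2, 10.8, 54.7, 3.52 and 16.5. Those at Day 4, Day 8, Day 12 and Day 12- 12 lay inside Rab7b, and the 1 site at Day 12- 8 lay 9102 bp outside it. Rab7b was the weakest of the 4, and in no library did it have one of the best 8043 sites.

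**Figure D1:**
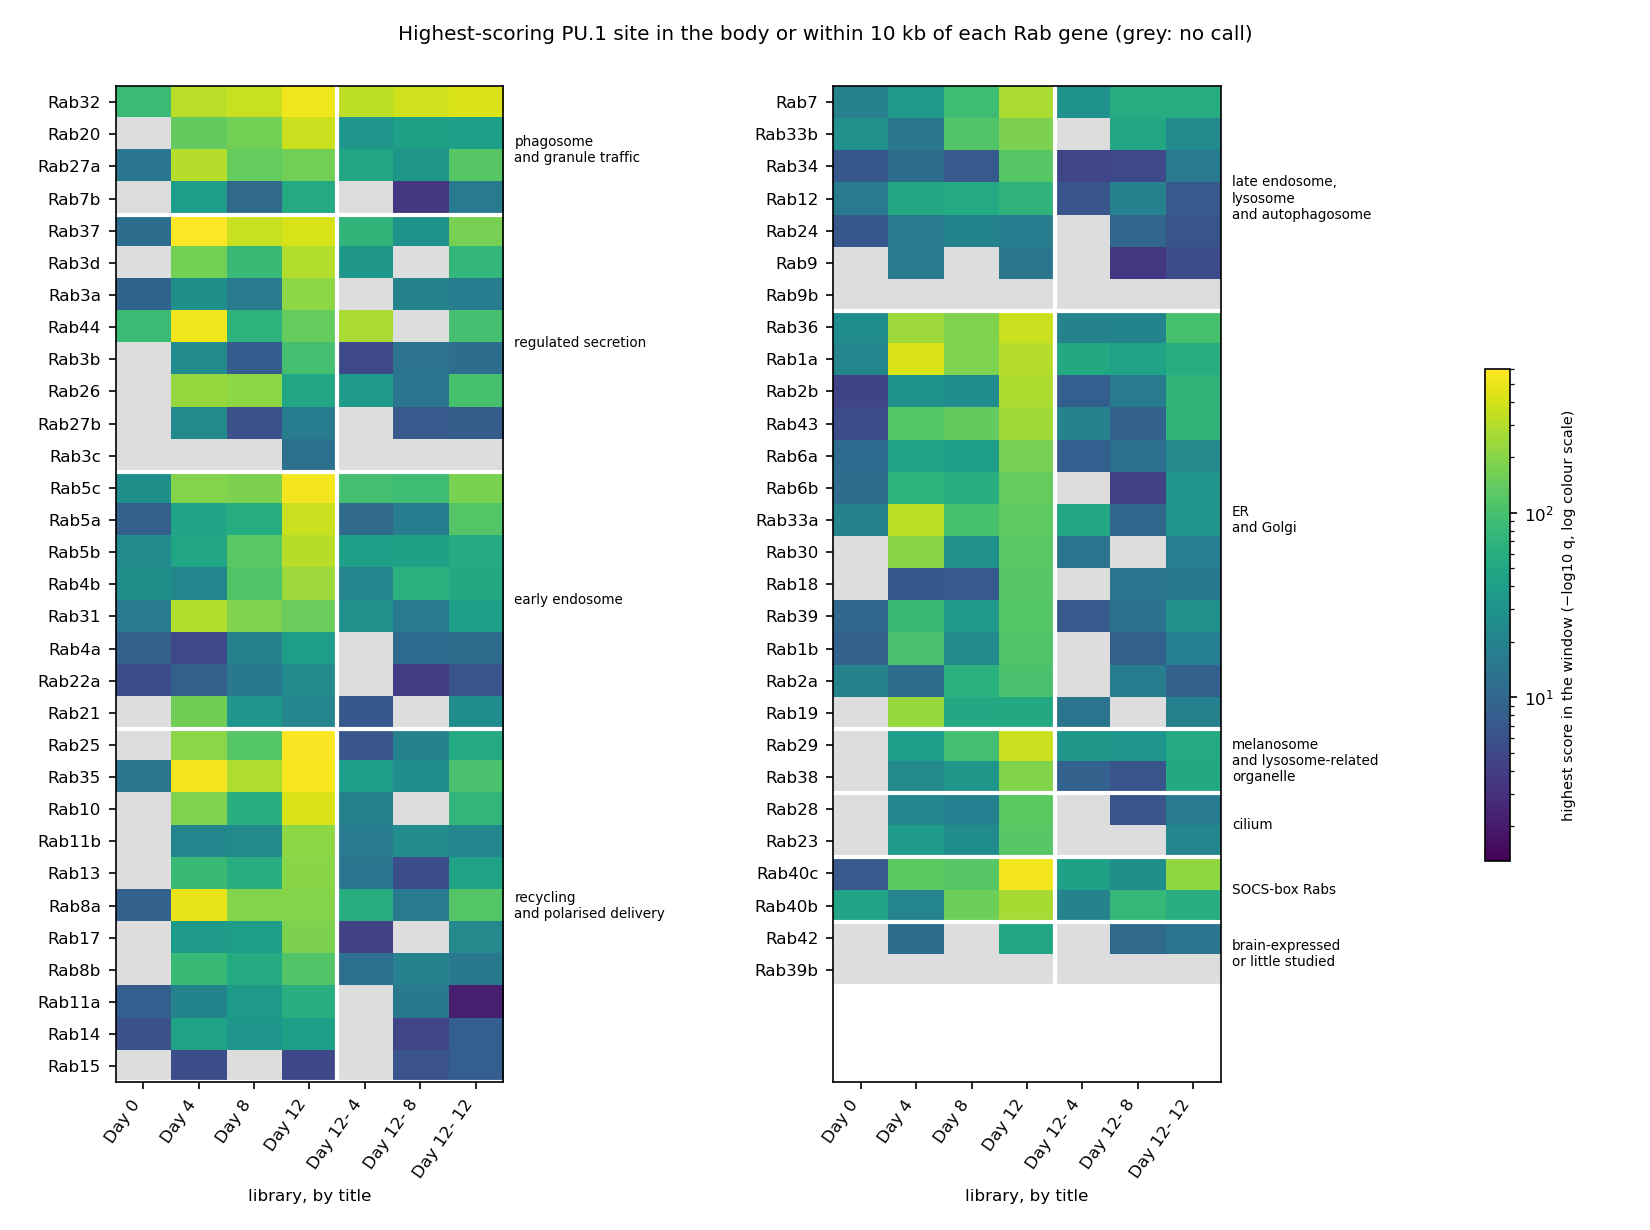
Highest score (−log10 q, log colour scale) of a PU.1 site in the window of each of the 59 Rab genes (rows, grouped by role) in each library (columns); grey means no call, and a white line parts the restoration titles from the knockdown titles. Rab32 is bright in all 7 columns, while Rab39b and Rab9b are grey in all 7 and Rab3c in all but Day 12.

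Across the whole family, more Rab genes had a PU.1 site in every library than the share among all protein-coding genes would give. 33 Rab genes (55.9%) had one at Day 0, against 36.8% of all genes. The counts after Dox were 56 (94.9%, against 69.8%) at Day 4, 53 (89.8%, against 61.7%) at Day 8 and 57 (96.6%, against 77.1%) at Day 12. In the libraries titled knockdown they were 38 (64.4%, against 34.8%) at Day 12- 4, 48 (81.4%, against 61.8%) at Day 12- 8 and 56 (94.9%, against 78.9%) at Day 12- 12. Rab genes were longer than most, with a median of 23.2 kb, against 17.2 kb for all genes. When all genes were weighted to the Rab genes' lengths in 10 classes of equal gene number, the shares became 39.9%, 75.8%, 67.8%, 83.6%, 38.3%, 67.2% and 84.2%. The Rab share was above that in each of the 7 libraries, by a factor between 1.13 (Day 12- 12) and 1.68 (Day 12- 4).

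Lists of very different length were also set on one footing by keeping only the best 8043 sites in each. Rab genes with such a site then numbered 33, 26, 34, 42, 36, 36 and 35, which is 55.9%, 44.1%, 57.6%, 71.2%, 61.0%, 61.0% and 59.3%. Among all genes the shares were 36.8%, 25.5%, 29.2%, 35.2%, 31.0%, 37.8% and 31.0%. Day 12 had the highest Rab share of the 7 on this footing. With a minimum score of 20, the Rab genes with a site numbered 10, 46, 45, 52, 20, 17 and 35. The percentages among all genes were 7.8%, 45.9%, 40.1%, 56.8%, 12.7%, 15.6% and 30.1%. The median highest score of the Rab genes that had a site was 12.0, 47.1, 59.6, 148, 20.2, 16.2 and 29.9, against 10.7, 34.3, 33.4, 67.1, 13.5, 10.7 and 14.6 over all genes that had one.

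**Figure D2:**
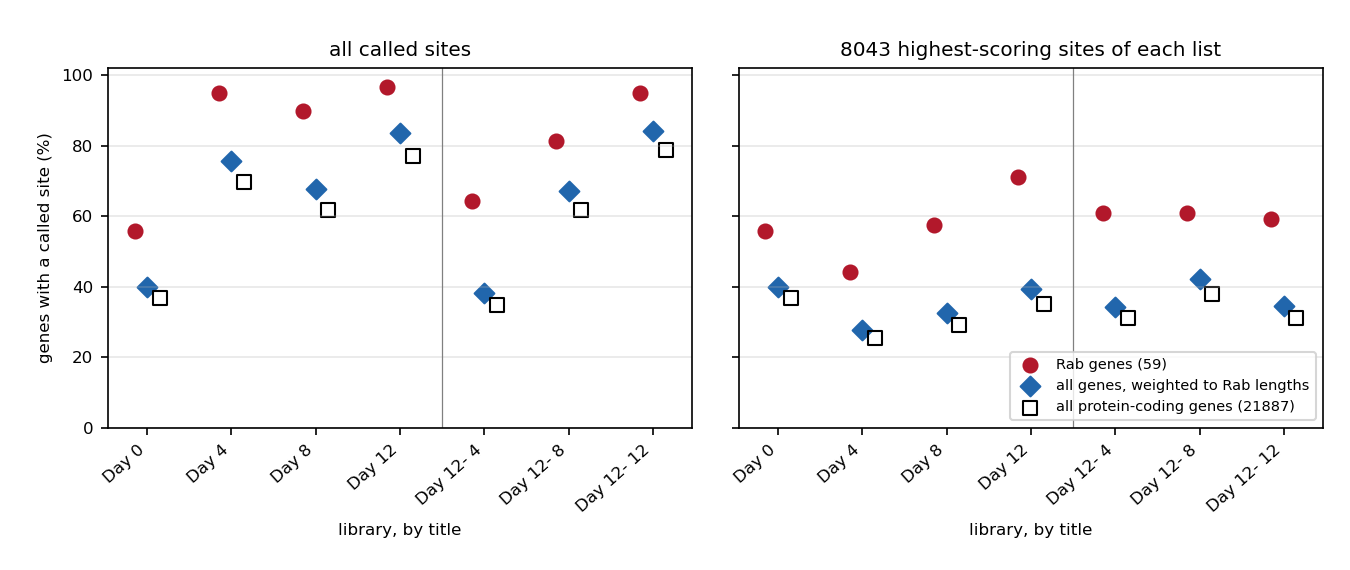
Percent of genes with a called site in the window, for the 59 Rab genes (red circles), all genes weighted to the Rab lengths (blue diamonds) and all 21887 protein-coding genes (open squares), in each library by title; left, all called sites, and right, each list held to its best 8043 sites. The red circles lie above both other marks in all 7 libraries of both panels, with 96.6% at Day 12 on the left and 71.2% on the right.

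The members differed widely among themselves. 22 Rab genes (37.3%) had a site in all 7 libraries, against 17.5% of all genes. They were Rab12, Rab1a, Rab27a, Rab2b, Rab31, Rab32, Rab33a, Rab34, Rab35, Rab36, Rab37, Rab39, Rab40b, Rab40c, Rab43, Rab4b, Rab5a, Rab5b, Rab5c, Rab6a, Rab7 and Rab8a. 20 more had one in 6 libraries, 10 in 5, 4 in 4, and 1 in a single library. That 1 was Rab3c, a synaptic vesicle Rab and with 226.8 kb the longest of the family, which had 1 site of score 12.4 at Day 12, 131547 bp from its start. Rab39b, which is mutated in human X-linked intellectual disability, and Rab9b, a relative of the late endosomal Rab9, had no site in any library, against 13.4% of all genes. Both lie on the X chromosome and are short, with 6.19 kb for Rab39b and 10.4 kb for Rab9b. However, Rab33a and Rab9 also lie on it and were called in 7 and 4 libraries, and Rab24, of 2.76 kb, in 6.

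Of the 8 Rab genes of regulated secretion, 3, 7, 7, 8, 5, 5 and 7 had a site, where lengths alone would give 3.51, 6.16, 5.46, 6.69, 3.04, 5.50 and 6.83. The group was thus below that number at Day 0 and Day 12- 8. Rab37, found on mast cell and macrophage secretory granules, had highest scores of 12.0, 602, 361, 414, 71.6, 30.6 and 171. It was the strongest of the group except at Day 0 and Day 12- 4, where Rab44 scored higher. In 6 libraries that score came from the same place inside Rab37, between positions 115133965 and 115133990 of chromosome 11. Day 12- 8 had no call there, and its highest Rab37 site lay 425 bp outside the gene, nearest to Slc9a3r1. Rab44, a large Rab of mast cell and osteoclast secretory lysosomes, had 85.6, 521, 69.1, 141, 276 and 97.2 in the libraries other than Day 12- 8, where its window held no call. Its site about 2.6 kb outside the gene gave the highest Rab44 score in 5 of them, and at Day 12 a site 55 bp outside the gene did. Rab3d, the granule Rab of secretory and mast cells, had no site at Day 0 or Day 12- 8 and scored 166, 81.6, 295, 33.4 and 76.4 elsewhere, always 8556 to 8567 bp inside from its start. Rab3a and Rab3b, which act in transmitter release, reached 211 and 99.2 at Day 12, and the Rab3a site lay nearest to Mpv17l2. Rab26 (228 at Day 4 and 212 at Day 8) was scored through sites nearest to Traf7, and Rab27b never passed 23.7.

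The Rab genes of the early endosome were above the number their lengths give in every library. Of these 8, 7, 8, 8, 8, 6, 7 and 8 had a site, where lengths alone would give 3.27, 6.27, 5.62, 6.82, 3.12, 5.48 and 6.86. The Rab5 paralogues drive fusion of endocytic vesicles with early endosomes, and all of them had sites in all 7 libraries. Rab5c had highest scores of 27.3, 192, 179, 536, 97.1, 88.8 and 174. At its start, which was called in every library, the Day 4 and Day 8 scores were 107 and 111, and the higher ones of those lists lay 2015 and 2022 bp inside. Rab5a had 8.39, 46.8, 58.1, 363, 10.7, 16.9 and 115, and Rab5b 25.0, 47.4, 124, 309, 41.6, 43.4 and 57.2. The Rab5a sites lay within 1 kb of its start in all libraries, whereas the Rab5b site lay 8795 to 8906 bp outside the gene and was nearest to Pmel. Rab4b, a fast recycling Rab, scored 27.3, 21.4, 114, 247, 21.1, 63.8 and 53.6, from 18 to 94 bp inside its start except at Day 0. Rab31, which carries cargo between the Golgi and endosomes, held 2, 15, 12, 12, 2, 2 and 21 sites in 121.0 kb and scored 16.0, 296, 182, 148, 28.4, 15.8 and 40.3. Rab4a and Rab22a stayed at or below 40.6, and Rab21 peaked at 159.8 at Day 4.

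The 11 Rab genes of recycling and polarised delivery held the 2 highest Day 12 scores of the family, and 4 of them had a site at Day 0. The counts were 4, 11, 10, 11, 8, 9 and 11, where lengths alone would give 4.27, 8.31, 7.43, 9.21, 4.31, 7.35 and 9.23. Rab25, a relative of Rab11 known from epithelia, had no site at Day 0 and then 204, 119.7, 578, 6.66, 19.7 and 55.6. Its highest site lay 2927 to 2963 bp inside from the Rab25 start in all of these but Day 12- 8, whose site was nearest to Mex3a. Rab35, a recycling Rab that also acts at the phagocytic cup, had 14.7, 541, 288, 568, 39.5, 26.3 and 103. These Rab35 scores came from different places, 3638 bp outside the gene at Day 12 and about 7.7 kb outside the gene, nearest to Gcn1, at Day 4, Day 8 and Day 12- 4. Rab10, which delivers membrane proteins to the surface, had 184, 61.2, 423, 18.8 and 74.2 and no site at Day 0 or Day 12- 8. All 5 Rab10 scores came from 1 place 9948 to 9993 bp outside the far end of the gene, just within the window, and Rab10 would lose them in a narrower one. Rab8a, of polarised exocytosis, had 8.49, 493, 193, 198, 59.4, 16.5 and 116, from a site about 8.2 kb inside the gene in 5 libraries. Rab11a and Rab11b, of the recycling endosome, reached 60.2 and 212 at Day 12. Rab13, Rab17 and Rab8b reached 199, 178 and 113, and that Rab13 site was nearest to Rps27. Rab14 stayed at or below 44.7 and Rab15 at or below 8.04.

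Of the 7 Rab genes of late endosomes, lysosomes and autophagosomes, 5, 6, 5, 6, 3, 6 and 6 had a site, where lengths alone would give 2.49, 4.95, 4.41, 5.57, 2.52, 4.46 and 5.66. Their median highest score at Day 12 was 95.8, against 148 for all 57 called Rab genes. Rab7, which brings late endosomes and phagosomes to lysosomes, was called between its 2 annotated starts in all 7 libraries, with 19.0, 36.8, 88.8, 279, 30.4, 57.4 and 57.8. Rab33b, which recruits autophagy proteins, had 28.6, 14.8, 114, 179, 49.7 and 24.2 at its start and no site at Day 12- 4. Rab34 reached 121 at Day 12 through a site nearest to Proca1, Rab12 reached 70.5, and Rab24 and Rab9 did not pass 20.8. None of these 7 genes had one of the best 8043 sites at Day 4, where lengths alone would give 1.74.

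All 13 Rab genes of the endoplasmic reticulum and Golgi had a site at Day 4, Day 8, Day 12 and Day 12- 12, and 10, 9 and 11 had one at Day 0, Day 12- 4 and Day 12- 8. Lengths alone would give 5.22, 10.0, 9.02, 11.1, 5.12, 8.82 and 11.1 in the 7 libraries. Rab36, a Golgi Rab, scored 25.4, 243, 183, 364, 19.7, 20.8 and 100.1, in 3 libraries through a site nearest to Bcr. Rab1a, needed for transport from the endoplasmic reticulum to the Golgi, scored 21.4, 427, 182, 306, 53.4, 45.9 and 59.7. Its Day 4, Day 8 and Day 12- 4 sites lay about 4.5 kb beyond the gene, nearest to Cep68, and its others within 1 kb of the Rab1a start. Rab2b, which acts in the same early secretory steps, had 4.47, 29.8, 25.4, 283, 8.04, 16.7 and 72.0. From Day 4 on those Rab2b sites lay 103 to 181 bases before its start, nearest to Tox4. At Day 12 the other members of this group ranged between 53.4 (Rab19) and 251 (Rab43).

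Rab29 and Rab38, set here as the group of melanosomes and related organelles, had no site at Day 0 and a site in every other library. Lengths alone would give 0.848 of the pair at Day 0. Rab32 and Rab27a, which also act on such organelles, were counted with the traffic genes and had sites at Day 0. Rab29, which also acts with the kinase LRRK2 at the Golgi, had exactly 1 site per library, 154 to 194 bases after its start, with 41.0, 96.5, 364, 33.2, 30.8 and 55.6. Rab38 reached 189 at Day 12. The ciliary Rab23 and Rab28 had no site at Day 0 or Day 12- 4 and reached 122 and 128 at Day 12. Lengths alone would give 0.877 and 0.794 of that pair at Day 0 and Day 12- 4. With 2 genes, a missing call in both is near that background. Rab40b and Rab40c, whose SOCS box joins them to ubiquitin ligases, had sites in all 7 libraries, where lengths alone would give between 0.772 and 1.74 of the pair. Rab40c had 7.13, 127, 122, 541, 43.1, 27.9 and 214, and in every library but Day 0 the summit lay 808 to 843 bases before its start. Rab40b had 46.9, 21.4, 156, 269, 20.4, 77.6 and 59.6 at a place 1585 to 1657 bp outside the gene and nearest to Wdr45b. Rab42, a little studied member, had sites in 4 libraries, with at most 47.4 at Day 12.

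24 Rab genes (40.7%) were called at Day 12 without a call at Day 0, against 42.1% of all genes, so this count was near the background. They included Rab20 and Rab7b of the 4 traffic genes, and also Rab29, Rab38 and the ciliary Rab23 and Rab28. 20 of them had a site at Day 4, Day 8 and Day 12 alike (33.9%, against 28.3% of all genes). Every Rab gene called at Day 0 was also called at Day 12, and 1.76% of all genes were called at Day 0 alone of this pair, so 0 of 59 was near the background. With a minimum score of 20, the number called at Day 12 but not at Day 0 was 42 (71.2%, against 49.1%). With each list held to its best 8043 sites it was 15 (25.4%, against 14.8%). On that footing 6 Rab genes called at Day 0 lacked a call at Day 12, namely Rab11a, Rab12, Rab14, Rab22a, Rab24 and Rab4a (10.2%, against 16.4% of all genes). All 6 had Day 12 scores of 70.5 or lower in the whole list.

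Rab genes had called sites at their starts more often than all genes did, though most Rab sites of the Day 4, Day 8, Day 12, Day 12- 4 and Day 12- 12 lists lay elsewhere. The RefSeq promoter table held starts for 48 of the 59 Rab genes; Rab18, Rab26, Rab27b, Rab2a, Rab30, Rab36, Rab37, Rab38, Rab44, Rab4a and Rab7b were not in it. A summit in the promoter window was called for 9, 13, 14, 23, 11, 12 and 17 of the 48. That is 18.8%, 27.1%, 29.2%, 47.9%, 22.9%, 25.0% and 35.4%, against 8.6%, 15.0%, 18.3%, 31.0%, 8.71%, 18.7% and 20.6% of 17492 genes in the table. Within 1 kb of a start the counts were 21, 23, 31, 41, 18, 34 and 32, against 25.1%, 27.9%, 33.2%, 55.5%, 15.7%, 45.6% and 44.3% of genes. The 41 at Day 12 were 85.4% of the 48. The highest-scoring site of a Rab gene lay within 1 kb of its start in 60.7%, 26.7%, 38.1%, 52.2%, 40.6%, 74.4% and 46.7% of the Rab genes that had a site and a known start. Counted over all sites in the windows of Rab genes with a known start, the shares were lower, at 59.5%, 15.3%, 27.8%, 20.4%, 40.0%, 53.3% and 11.8%.

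**Figure D3:**
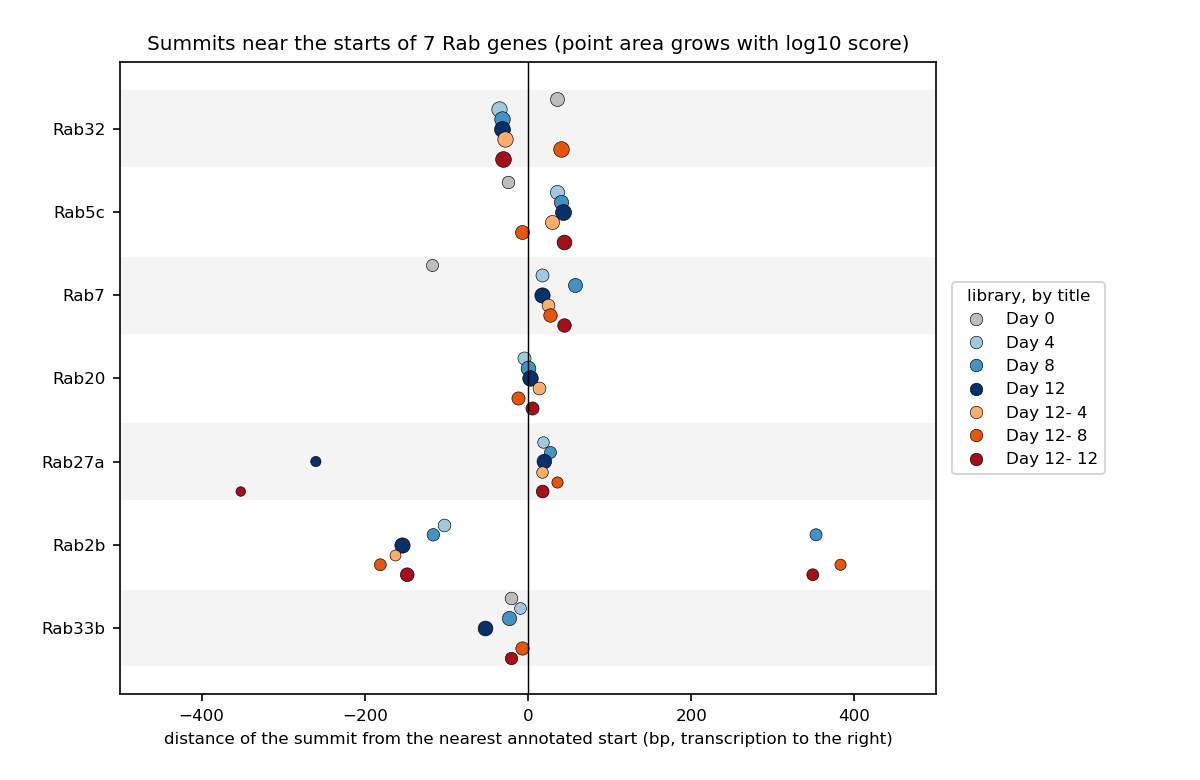
Distance (bp) of each called summit from the nearest annotated start of 7 Rab genes, within 500 bp, with transcription to the right; colours give the library by title and point area grows with log10 score. The Day 0 and Day 12- 8 points of Rab32 lie 35 and 41 bases after its start, and its other 5 lie 28 to 36 bases before it.

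The 6 letters GGAAGT were in 16 of 60 Rab promoter windows (26.7%), against 24.8% of all 21263 windows of the same length. GAGGAAGT was in 2 (3.33%, against 3.13%), those of Rab32 and Rab2b. CCGGAAGT was in 2 (3.33%, against 5.15%). Rab promoters as a set thus carried GGAAGT about as often as promoters at large. At Day 12 GGAAGT was in 12 of the 26 Rab windows with a summit, against 4 of the 34 without, and in 40.6% of all windows with a summit, against 18.7% of those without. The 11 distinct Day 12 summits in Rab windows with GGAAGT lay a median of 6.5 bp from its centre, against 24.5 bp for 2272 summits over all genes. The Rab median was below that of all genes in every library but Day 0. At Day 0 it was 68.0 bp over 4 summits, against 40.5 bp. At Day 12- 8 the medians were near each other, with 33.0 bp over 6 Rab summits, against 37.5 bp.

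The printed promoters show how closely summits and letters coincide. In Rab5c the match lies 36 to 41 bases after the start, and the summits at Day 4, Day 8, Day 12, Day 12- 4 and Day 12- 12 lay 2.5, 1.5, 4.5, 9.5 and 5.5 bp from its centre. At Day 0 and Day 12- 8 the Rab5c summits lay 62.5 and 45.5 bp away. Rab7 has 2 matches, and its summits lay 0.5 to 14.5 bp from the nearer one in all libraries but Day 0, where the distance was 91.5 bp. In Rab27a the 6 summits lay 1.5 to 20.5 bp from the match, and in Rab2b 8.5 to 69.5 bp. Rab20 and Rab33b were called at the start in 6 libraries with no GGAAGT in the printed window. Both of those windows do hold the shorter core GGAA, which was not counted. Summits of Rab32, Rab5c and Rab7 at Day 0 were thus farther from the letters than those at Day 12. The Day 0 summit of Rab35, whose promoter is not printed, lay 1.5 bp from its match. Over all genes the median distance was 24.5 bp at Day 12 and 40.5 bp at Day 0. A match is a description of the sequence and was not tested as a binding site.

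At Day 12 the number of sites per Rab gene ranged from 0 to 18, with a median of 3. Across the 59 Rab genes, Spearman's rho between length and site number was 0.03, against 0.31 across all genes, as a description over genes that share 1 library. Over the 7 libraries the Rab value for length lay between −0.03 (Day 12- 12) and 0.24 (Day 4), against 0.16 to 0.41 across all genes. With the number of other protein-coding genes in the window, which ranged up to 4, rho was 0.53 at Day 12, the highest of the 7 libraries, and 0.27 at Day 4, the lowest. Rab3a, of 3.91 kb with 4 neighbours, had 16 sites, and Rab35, of 15.3 kb with 2, had 17. Rab6b, of 73.6 kb, had 18, of which 1 scored above 20. Of the 57 highest-scoring Day 12 sites, 42 had the Rab gene as their nearest gene, and in the other 15 a neighbour lay closer. The neighbours' part in these counts was not tested.

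**Figure D4:**
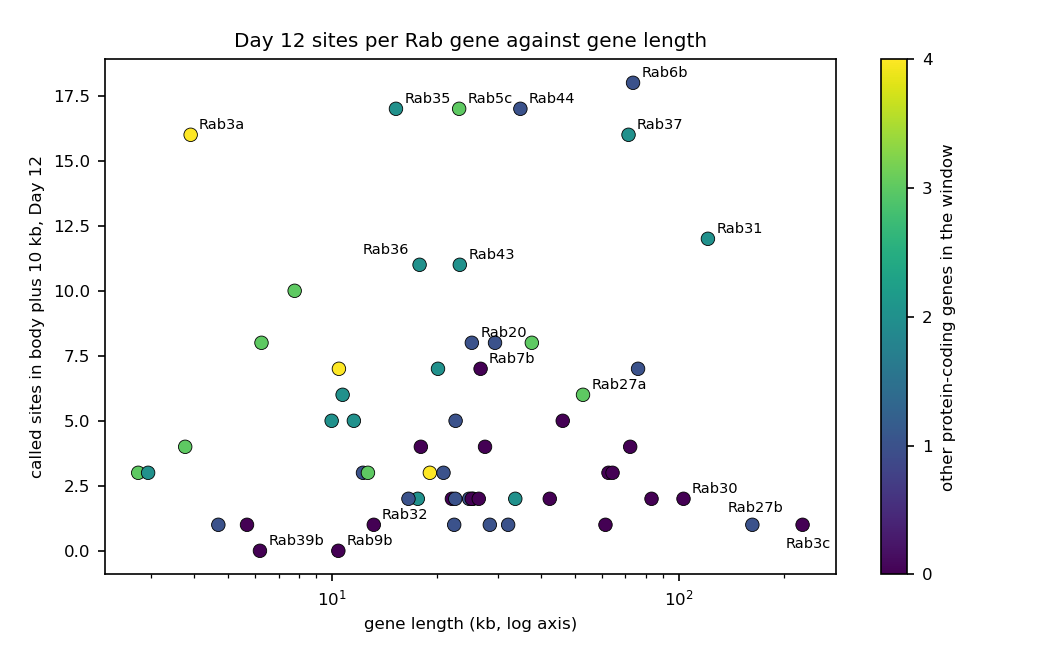
Number of called sites in the window at Day 12 against gene length (kb, log axis) for the 59 Rab genes; colour gives the number of other protein-coding genes in the window. The longest gene, Rab3c at 226.8 kb, has 1 site, while Rab3a at 3.91 kb with 4 neighbours has 16.

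Most Rab genes had a site in each of the libraries titled knockdown. Of the Rab sites at Day 12- 4, Day 12- 8 and Day 12- 12, 81.8%, 48.4% and 37.8% lay within 100 bp of a Day 12 summit. Over all sites of those lists the shares were 72.1%, 33.8% and 27.2%. 31 Rab genes (52.5%) had a site in all 3 of these libraries, against 30.8% of all genes. No Rab gene had a site in at least 2 of them and none at Day 12, against 1.74% of all genes. 19 Rab genes with a site at Day 12 had none at Day 12- 4, 9 had none at Day 12- 8, and 1, Rab3c, had none at Day 12- 12. These were 32.2%, 15.3% and 1.69% of the Rab genes, against 42.4%, 18.0% and 4.61% of all genes. The windows of the 59 genes held 310 Day 12 sites. Of these, 4.84% (95% exact binomial interval 2.73 to 7.86) had a summit within 100 bp at Day 0, against 3.11% of all Day 12 sites. The shares also called at Day 4 and Day 8 were 33.5% (28.3 to 39.1) and 33.9% (28.6 to 39.4), against 23.4% and 23.2%. At Day 12- 4, Day 12- 8 and Day 12- 12 they were 14.5% (10.8 to 18.9), 14.2% (10.5 to 18.6) and 54.2% (48.5 to 59.8), against 8.25%, 8.38% and 46.8%. The intervals cover counting error in these libraries only.

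**Figure D5:**
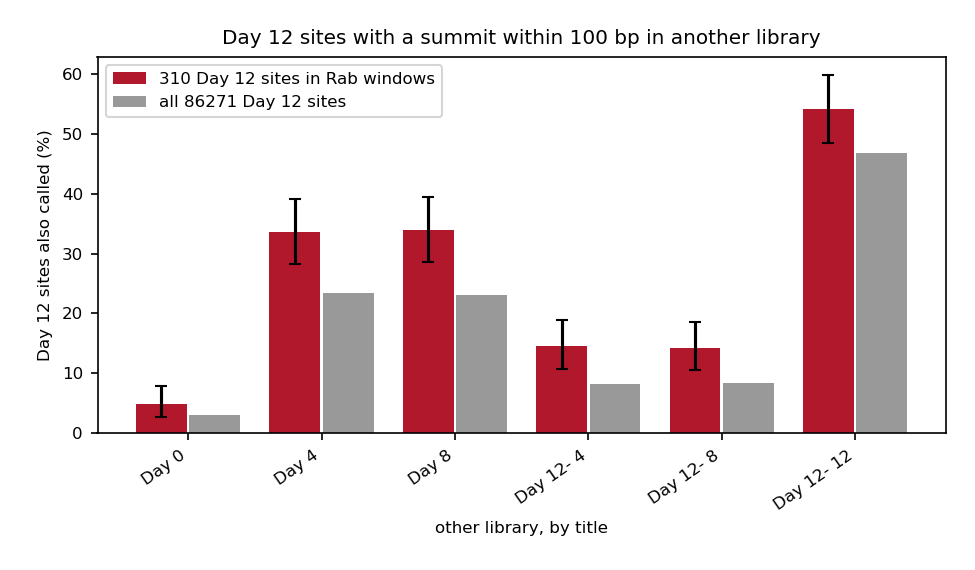
Percent of Day 12 sites with a summit within 100 bp in each other library, for the 310 sites in Rab windows (red, with exact 95% binomial intervals for counting error) and all 86271 Day 12 sites (grey). The red bar is 4.84% for Day 0 and 54.2% for Day 12- 12, the longest list.

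A summit in any library titled knockdown was found for 60.0% of the Day 12 Rab sites (54.3 to 65.5), against 51.3% of all Day 12 sites. Most of that came from the longest list, since without Day 12- 12 the share was 22.9% (18.3 to 28.0), against 13.8%. With each list held to its best 8043 sites the order turned, with 77.6% (65.8 to 86.9) of 67 Rab sites, against 78.8% of all sites. When the 7 lists were merged at 100 bp, Rab windows held 762 sites. 7 of them were called in all 7 libraries (0.919%, against 0.379% of 246675 merged sites), in the windows of Rab32, Rab37, Rab40b, Rab4b, Rab5b, Rab5c and Rab7. Those of Rab37, Rab40b and Rab5b were nearest to Slc9a3r1, Wdr45b and Pmel. The start site of Rab4b scored 25.1, 21.4, 114, 247, 21.1, 63.8 and 53.6, and the one near Slc9a3r1 in the Rab37 window 7.29, 32.0, 55.6, 280, 31.8, 30.6 and 37.1. 18 more were called in 6 libraries. 10 of these 18 lacked a call at Day 0 and 6 lacked one at Day 12- 8, against 62.7% and 22.3% of the 1932 such sites genome-wide. The 6 without a call at Day 12- 8 were the sites by Rab1a, Rab33a and Rab44 and inside Rab27a, Rab37 and Rab8a. At those 6 the Day 4 score was the highest of the 7 libraries. How often that held among the 430 such sites genome-wide was not counted, so it is not a trait of Rab sites. Scores of different libraries do not measure more or less binding.

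Genes that act on Rabs were taken as a further list. Of 98 such genes, 60, 93, 90, 97, 58, 89 and 94 had a site, where their lengths alone would give 45.2, 78.7, 70.6, 84.9, 38.7, 69.5 and 85.9. The scores given for them are the highest in the window, and whether a neighbouring gene lay closer was not examined. Of 32 GTPase-activating proteins, 23, 32, 30, 32, 24, 30 and 32 had a site, where lengths would give 15.0, 26.0, 23.3, 27.9, 12.7, 22.9 and 28.2. Among these, Tbc1d14, which limits autophagosome formation through Rab11, scored 13.3, 691, 504, 375, 137, 46.6 and 159. Tbc1d1, which regulates glucose transporter traffic in muscle, scored 393, 284, 330, 392, 229, 362 and 264, and was the highest of the 98 at Day 0. Of 26 exchange factors, 17, 25, 25, 26, 12, 25 and 26 had a site, where lengths would give 11.8, 20.9, 18.8, 22.6, 10.3, 18.4 and 22.8. Among them Dennd1c, a DENN-domain protein linked to Rab35, reached 698 at Day 12. Of 14 effectors of secretory Rabs, 6, 12, 11, 13, 6, 11 and 13 had a site, where lengths would give 7.03, 11.7, 10.5, 12.4, 5.66, 10.3 and 12.6. The counts of this group were near that background, and below it at Day 0. Unc13d, the Rab27a effector that primes granules, had no site at Day 0 and reached 372 at Day 12, whereas Sytl4, another Rab27a effector, was called at Day 4 alone with 11.7. Of 19 effectors of endosomal Rabs, 11, 18, 19, 19, 13, 18 and 18 had a site, where lengths would give 8.60, 15.1, 13.7, 16.5, 7.37, 13.4 and 16.6. Rab11fip1, which binds Rab11 and Rab25, scored 549 at Day 12. Of 7 genes for Rab prenylation and extraction, 3, 6, 5, 7, 3, 5 and 5 had a site, where lengths would give 2.66, 5.03, 4.37, 5.57, 2.61, 4.55 and 5.72. These counts were near that background, and Gdi2, which returns Rabs to the cytosol, scored 356 at Day 12.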

How the data were processed

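PU.1 ChIP-seq lists of 7 libraries were used, and libraries were grouped by title. Per the submitters' processing notes, MACS2 and the build mm10 were used. The authors deposited 1 summit per peak with a score, read as the −log10 q-value, since the lowest score was 1.30104 and a q limit of 0.05 gives nearly that value. The aligner, depth, control and read filters are not given in the sources used here.

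Genes and promoters came from RefSeq tables on GRCm38.p6, which shares its coordinates with mm10. A gene was called where a summit fell between 10 kb before and 10 kb after its ends. Its score was that of the highest such site. All genes were weighted to the Rab lengths in 10 classes, as a description with no test. Lists were also reduced to 8043 sites, and sites were shared within 100 bp. Counting steps were tested on simulated data. Tools were Python 3.11.15, numpy 2.4.6, pandas 2.3.3, scipy 1.17.1 and matplotlib 3.10.9.

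Members, role groups and the 98 pathway genes were chosen with earlier results of these data known. Named were the 4 traffic genes, the 10 others with the highest Day 12 score, up to 10 called in all 7 libraries by lowest score, those called in none, and those with promoter summits in 3 or more libraries. Further members named as examples of their role group, and the pathway genes, were chosen after their values were seen.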

Additional observations from a re-analysis of the deposited data

How the results depend on the processing

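Depth, control and replicate spread were unknown, so counts at 1 score minimum depend on each list's depth. No paired analysis was possible because every title had 1 library, and leaving out a replicate could not be done for the same reason. The ratio to the count that lengths give stayed above 1 under every alternative run. Where an alternative had a value over all genes beside it, directions against all genes turned for 2 results, given below. Of 109 values under alternatives, 75 moved little and 34 moved more. The count of Rab genes with a site was 20 at Day 0 with a score of at least 10, with no share of all genes beside it. With a score of at least 20 it was 10 (Day 0), 20 (Day 12- 4), 17 (Day 12- 8) and 35 (Day 12- 12). With lists of 8043 sites it was 26 at Day 4, 34 at Day 8 and 35 at Day 12- 12, and with the gene body alone it was 20 at Day 12- 4. The ratio of the Rab count to the count that lengths give was 1.40, 1.25, 1.33, 1.16, 1.68, 1.21 and 1.13. With a score of at least 20 it was 1.94, 1.56, 1.71, 1.39, 2.39, 1.64 and 1.77. With lists of 8043 sites it was 1.59 (Day 4), 1.77 (Day 8), 1.80 (Day 12), 1.45 (Day 12- 8) and 1.71 (Day 12- 12). Without length classes it was 1.36 (Day 4), 1.46 (Day 8), 1.25 (Day 12) and 1.20 (Day 12- 12). With the gene body alone it was 1.37, 1.18, 1.45, 1.07, 1.46, 1.25 and 1.14, and so close to 1 at Day 12. The 24 Rab genes called at Day 12 and not at Day 0 (40.7%, against 42.1% of all genes) became 11 within 50 kb, 42 at a score of at least 20 (71.2%, against 49.1%) and 15 with lists of 8043 sites (25.4%, against 14.8%). The 60.0% of Day 12 Rab sites also called under a knockdown title (against 51.3% of all sites) became 43.9% within 50 bp (against 36.1%), 80.0% within 500 bp (against 74.2%), 84.9% for sites of score 20 or more (against 76.7%) and 77.6% with lists of 8043 sites, now below the 78.8% of all sites. By treatment label it was 59.0% (against 50.2%). An alternative chosen after seeing the data left out the Day 12- 12 library, and the share was 22.9% (against 13.8%). Another left out 1463 olfactory and vomeronasal receptor genes, and the ratios stayed between 1.12 and 1.66. The cause of these differences was not tested.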
